A study of Mus musculus with 32 samples.

Results

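Adipokines are hormones and other signals that fat releases into the blood, and the genes described here are 10 of them, chosen by name: Adipoq, Lep, Retn, Cfd, Rbp4, Nampt, Apln, Rarres2, Sfrp5 and Nrg4. Rarres2, the gene of chemerin, was not analysed here, which leaves 9 of the 24646 genes measured in each tissue. The expression values come from epididymal white adipose tissue (eWAT, the visceral depot beside the testis), inguinal white adipose tissue (iWAT, a subcutaneous depot) and brown adipose tissue (BAT), with liver as a further tissue, of 4 male Gpr146 knockout mice and 4 male wild-type littermates, with 1 Affymetrix Mouse Gene 2.1 ST array per mouse and tissue. GPR146 is a G protein-coupled receptor, and the knockout removes it from the whole body, so that fat, liver and every other tissue lack it together. All mice of both genotypes were on a C57BL/6J background, were 20 weeks old, had been given a high-fat diet (HFD) for 3 months and were fasted overnight before collection, and there was no chow-fed group among these arrays. The question was which of these hormone genes differ with genotype in obese fat, in which depot, and whether they vary together from mouse to mouse.

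White adipocytes make leptin in step with their stored fat, and leptin reports energy stores to the hypothalamus. Adiponectin, from Adipoq, is made almost only by adipocytes and raises insulin sensitivity in liver and muscle. Cfd (adipsin, or complement factor D) and Retn (resistin) are secreted by mature mouse adipocytes, and both genes are known targets of the adipocyte factors C/EBPα and PPARγ. In obesity, macrophages move into visceral fat, so that a piece of eWAT holds RNA of adipocytes, macrophages, progenitor cells and other types side by side.

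All values below are log2 expression values as the authors deposited them, normalized per tissue, and a difference of 1 is a factor of 2 between mice for the same gene. Heights of different genes are not comparable on such arrays, and levels in different tissues come from tables normalized separately, so tests were run within a tissue. Array medians ran from 3.13 to 3.18 in eWAT, 3.65 to 3.73 in iWAT, 2.82 to 2.86 in BAT and 3.00 to 3.06 in liver, and precision is bounded by having 4 arrays per genotype. Gpr146, the targeted gene, was lower in every knockout array than in every wild-type array of its tissue, with log2 differences of -1.53 in eWAT (limma adjusted p = 0.00823), -1.55 in iWAT (0.221), -1.16 in BAT (0.0727) and -1.77 in liver (6.55e-06). The adipocyte markers were bright in all 24 fat arrays, the list of brown adipocyte markers averaged 7.47 to 8.03 in BAT against at most 4.39 in the white depots, and the lists of epididymis and hepatocyte markers stayed at or below 3.51 in fat. Some fat arrays carried RNA of other tissues. In iWAT, the mean of 9 B cell markers was 7.43, 7.42 and 7.08 in wild-type mice 1 and 2 and knockout mouse 2, 5.34 in knockout mouse 4 and at most 3.45 in the others, and in BAT the mean of 12 skeletal muscle markers was 6.26, 7.23 and 7.52 in wild-type mice 2 and 3 and knockout mouse 2 and at most 3.89 in the others. Genotype differences in those depots are also given without these arrays. The correlations, the comparisons between depots, the values relative to adipocyte markers and the most similar genes below include them.

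**Figure D1:**
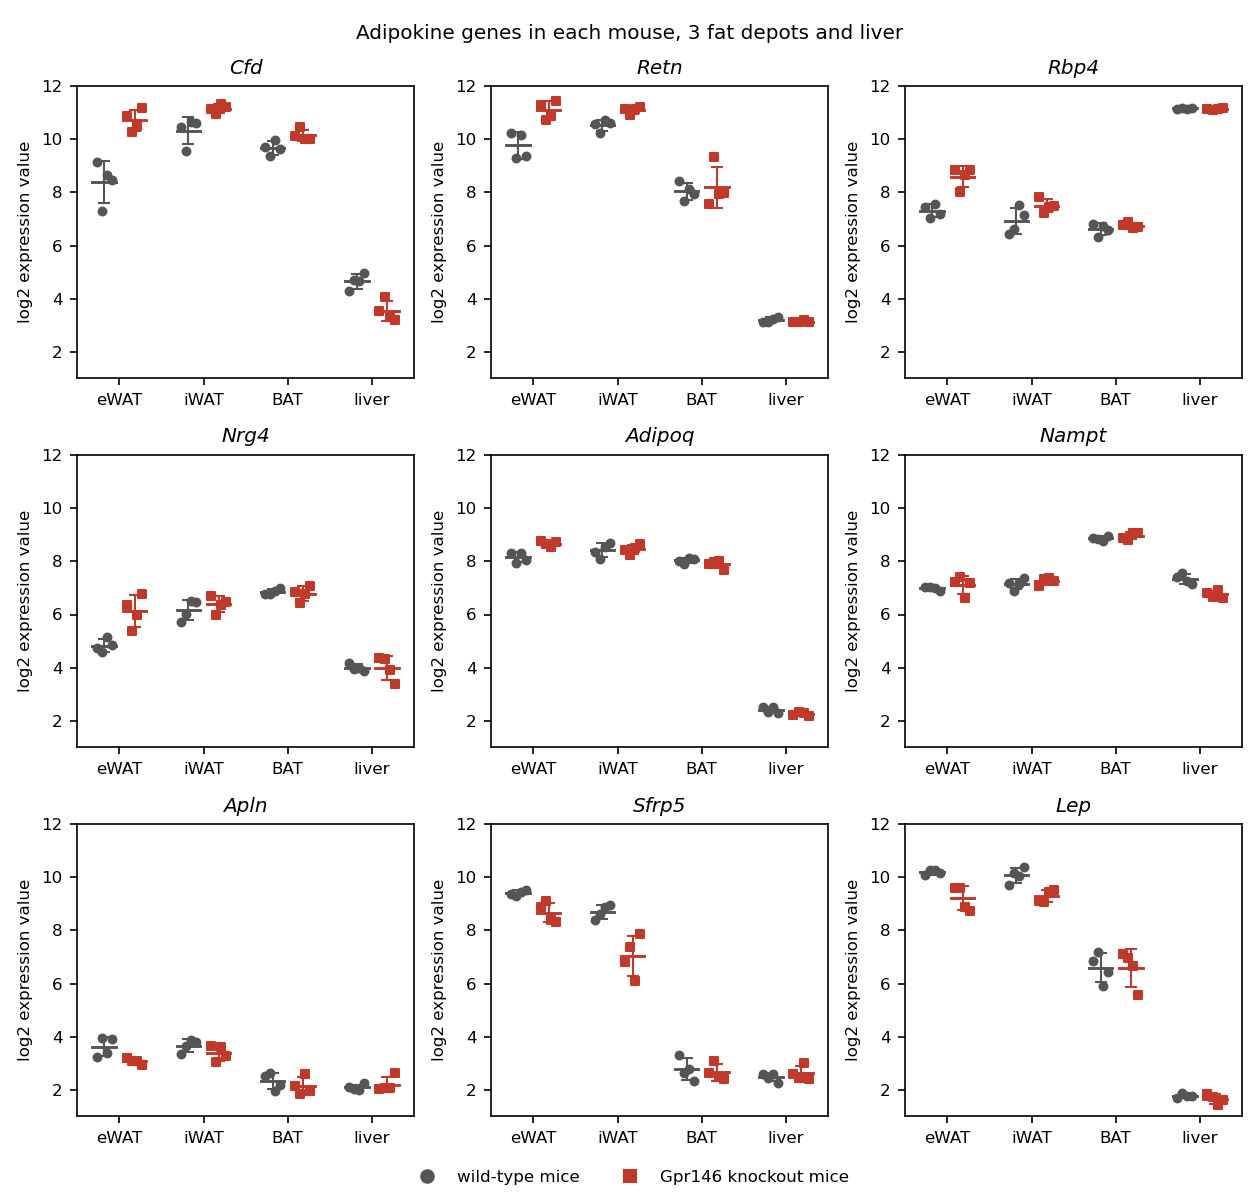
Log2 expression value of each of the 9 adipokine genes (vertical axis, arbitrary log2 units) in eWAT, iWAT, BAT and liver (horizontal axis) of 4 wild-type mice (circles) and 4 Gpr146 knockout mice (squares), with horizontal lines for means and bars for SD. The genotypes separate in eWAT for 8 genes, and Cfd shows the widest gap there, from a mean of 8.38 to 10.70.

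The place where each gene was expressed most gave a reference for the genotype comparison. Each gene's wild-type level is given here as its log2 distance above the median of its array. This is no test, and the order of tissues can depend on the subtraction. As deposited, the wild-type means of Cfd were 10.32 in iWAT and 9.67 in BAT, and those of Adipoq 8.43 and 8.03. Those of Nampt were 6.99 in eWAT and 7.14 in iWAT, and each of these orders is the other way round below. Lep was far above the median in both white depots, 7.04 in eWAT and 6.39 in iWAT, lower in BAT at 3.76 with mice between 3.07 and 4.35, and below the median in liver at -1.23. Sfrp5, a secreted inhibitor of Wnt signalling, stood above the median in the white depots, at 6.25 in eWAT and 5.02 in iWAT. In BAT it was at -0.05, near the floor of the array. Adipoq differed little between depots, with 5.0 in eWAT, 4.75 in iWAT and 5.20 in BAT. Its eWAT mice overlapped with those of each other depot, and its iWAT and BAT mice stood just apart, at up to 5.05 and from 5.09. Cfd stood at 5.23 in eWAT, 6.64 in iWAT and 6.83 in BAT. The wild-type mice in iWAT and BAT overlapped, and the eWAT range of 4.15 to 5.98 reached into the iWAT range only through wild-type mouse 2 in iWAT at 5.87. Retn was at 6.61 in eWAT and 6.84 in iWAT, which overlapped, and at 5.20 in BAT. Nrg4, a growth factor of the neuregulin family that brown fat is known to secrete toward the liver, was highest in BAT at 4.03, intermediate in iWAT at 2.50 and lowest in eWAT at 1.67, and no BAT mouse overlapped with a white fat mouse. Nampt, the rate-limiting enzyme of NAD salvage that is also found outside cells as visfatin, was likewise highest in BAT at 6.03 against 3.84 in eWAT and 3.46 in iWAT. Rbp4, the retinol carrier of blood, was made above all in liver, at 8.15, with 4.16 in eWAT, 3.25 in iWAT and 3.78 in BAT. Apln, the gene of the vasoactive peptide apelin, was close to the median everywhere, between -0.92 in liver and 0.47 in eWAT, and its values are near the floor of the array.

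In eWAT, 7 of the 9 adipokine genes differed between genotypes, and they moved in opposite directions. Cfd, Retn, Nrg4, Rbp4 and Adipoq rose in knockout mice, whereas Lep and Sfrp5 fell. Of all 24646 genes, 15.2% passed the same threshold in eWAT (adjusted p under 0.05, limma with Benjamini-Hochberg adjustment over all genes), 4.57% as higher and 10.7% as lower. Among the adipokine genes 5 of 9 were higher and 2 of 9 lower, and their median change was 0.51 against 0.03 over all genes. At an unadjusted p under 0.05 there were 8 of the 9, compared with 29.8% of all genes. Knockout and wild-type values did not overlap for 8 of the 9 genes, compared with 21.6% of all genes, with knockout above for 5 (8.63% of all genes) and below for 3 (13% of all genes).

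Cfd changed most. Its eWAT values were 9.13, 7.29, 8.64 and 8.46 in wild-type mice and 10.87, 10.28, 10.48 and 11.18 in knockout mice. Every knockout mouse lay above every wild-type mouse, and the lowest knockout value exceeded the highest wild-type value by more than 1 log2 unit. The mean rose from 8.38 ± 0.78 (SD, n = 4) to 10.70 ± 0.40 (SD, n = 4), which is a 5.0-fold difference (log2 2.32, standard error 0.36, limma adjusted p = 0.00877). As distances above the array median, the Cfd values of knockout mice overlapped between the depots, at 7.15 to 8.01 for eWAT, 7.24 to 7.62 for iWAT and 7.15 to 7.60 for BAT. This depends on the subtraction of the median. As deposited, knockout mice were at 10.94 to 11.32 in iWAT and 10.001 to 10.46 in BAT, without overlap between these 2 depots. Retn, the gene of resistin, measured 10.23, 9.29, 10.17 and 9.36 in wild-type mice and 11.29, 10.72, 10.88 and 11.44 in knockout mice. Wild-type mice 2 and 4 were the low ones, and the groups did not overlap. The mean rose 2.49-fold (log2 1.32, standard error 0.25, adjusted p = 0.0123).

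Rbp4 and Nrg4 rose to a like extent. Rbp4 was 7.44, 7.03, 7.58 and 7.20 in wild-type eWAT and 8.85, 8.02, 8.66 and 8.84 in knockout eWAT, a 2.43-fold higher mean (log2 1.28, standard error 0.19, adjusted p = 0.00871). Nrg4 was 4.74, 4.58, 5.14 and 4.85 in wild-type mice and 6.37, 5.36, 5.99 and 6.76 in knockout mice, 2.46-fold higher (log2 1.30, standard error 0.26, adjusted p = 0.0144). Knockout mouse 2 had the smallest value of its group for both genes, still above all wild-type mice. The call for Nrg4 was lost by a narrow margin when wild-type mouse 2 was left out, at an adjusted p of 0.0503.

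Adipoq rose by a smaller amount. It was 8.31, 7.94, 8.30 and 8.04 in wild-type mice and 8.76, 8.64, 8.54 and 8.72 in knockout mice, so that all knockout values were higher although the mean differed by only 1.43-fold (log2 0.51, standard error 0.10, adjusted p = 0.0144).

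Lep and Sfrp5 went the other way. Lep was between 10.07 and 10.28 in the 4 wild-type mice and was 9.60, 9.60, 8.88 and 8.74 in knockout mice. The wild-type mice were nearly alike, and the knockout mice formed a higher and a lower pair, all below the wild type. The mean fell 1.98-fold, from 10.19 ± 0.09 (SD, n = 4) to 9.21 ± 0.46 (SD, n = 4), with a log2 change of -0.98 (standard error 0.20, adjusted p = 0.0137). Sfrp5 was 9.38, 9.28, 9.45 and 9.52 in wild-type mice and 8.86, 9.09, 8.38 and 8.33 in knockout mice, a 1.67-fold lower mean (log2 -0.74, standard error 0.17, adjusted p = 0.0190). The same knockout mice, 3 and 4, were lowest for Lep and Sfrp5. The call for Sfrp5 was lost without wild-type mouse 3 (adjusted p = 0.0519) or wild-type mouse 4 (0.0593).

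The remaining genes did not pass. Apln was lower in all 4 knockout mice, at 2.92 to 3.20 against 3.24 to 3.95 in wild-type mice, with a log2 difference of -0.55 (95% interval -0.93 to -0.18) and an adjusted p of 0.0514, at values near the array median. Without wild-type mouse 1 its adjusted p was 0.0347. Nampt differed by 0.11 with a 95% interval of -0.24 to 0.46, and the genotypes overlapped (adjusted p = 0.671). With the methods' t-test, which uses each gene's own variance, 8 of the 9 genes had an unadjusted p under 0.05 in eWAT. After adjustment over all genes none of the 9 did, with values from 0.0645 to 0.0825 for the 7 called above, and that test called 38 genes in all.

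**Figure D2:**
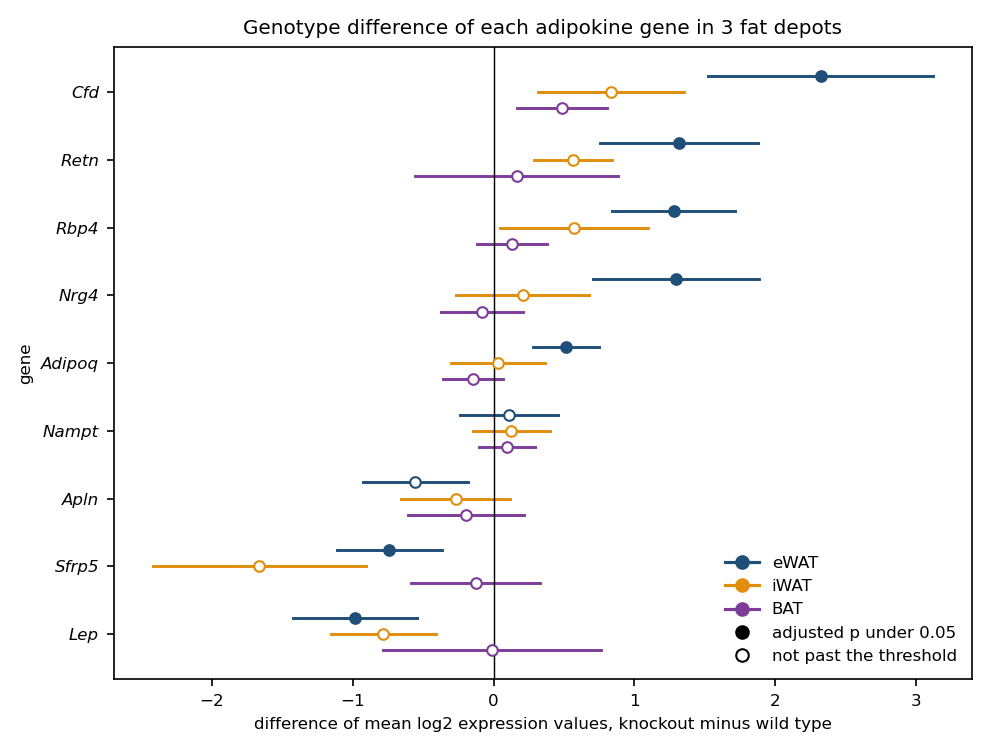
Difference of mean log2 expression values between knockout and wild-type mice (horizontal axis, knockout minus wild type) for each adipokine gene (vertical axis) in eWAT, iWAT and BAT, with 95% intervals from limma as lines and filled points where the adjusted p was under 0.05. Cfd, Retn, Rbp4 and Lep lie further from 0 in eWAT than in the other depots, and Sfrp5 in iWAT has the largest negative value, -1.66.

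Sequences around the annotated starts of the genes were searched for short motifs. RefSeq promoters of build GRCm38.p6, from 250 bases before to 50 bases after the annotated start, were found for 9 of the 10 genes. Those of the 2 strongest risers in eWAT that are secreted by mature adipocytes (Cfd and Retn), of adiponectin and of leptin are printed 5′ to 3′, and capitals mark matches to TTNNGNAA on either strand, the core of the site bound by C/EBP factors.
Cfd, chr10:79890603-79890902, plus strand: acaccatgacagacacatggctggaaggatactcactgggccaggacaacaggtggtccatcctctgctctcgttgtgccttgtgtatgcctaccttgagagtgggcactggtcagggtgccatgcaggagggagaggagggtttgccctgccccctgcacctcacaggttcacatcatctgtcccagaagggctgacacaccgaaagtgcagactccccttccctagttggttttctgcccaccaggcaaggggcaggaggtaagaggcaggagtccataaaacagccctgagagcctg
Retn, chr8:3655520-3655819, plus strand: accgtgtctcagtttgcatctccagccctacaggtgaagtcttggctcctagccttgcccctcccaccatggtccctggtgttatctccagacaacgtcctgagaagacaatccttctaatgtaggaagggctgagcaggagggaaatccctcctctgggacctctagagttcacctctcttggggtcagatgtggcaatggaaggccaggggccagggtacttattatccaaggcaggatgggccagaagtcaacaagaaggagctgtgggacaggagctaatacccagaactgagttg
Adipoq, chr16:23146286-23146585, plus strand: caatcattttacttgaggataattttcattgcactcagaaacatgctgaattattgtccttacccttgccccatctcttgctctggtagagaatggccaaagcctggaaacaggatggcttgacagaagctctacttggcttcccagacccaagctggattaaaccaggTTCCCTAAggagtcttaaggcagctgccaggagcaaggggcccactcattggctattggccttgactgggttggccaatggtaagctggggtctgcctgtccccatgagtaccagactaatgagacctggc
Lep, chr6:29059971-29060270, plus strand: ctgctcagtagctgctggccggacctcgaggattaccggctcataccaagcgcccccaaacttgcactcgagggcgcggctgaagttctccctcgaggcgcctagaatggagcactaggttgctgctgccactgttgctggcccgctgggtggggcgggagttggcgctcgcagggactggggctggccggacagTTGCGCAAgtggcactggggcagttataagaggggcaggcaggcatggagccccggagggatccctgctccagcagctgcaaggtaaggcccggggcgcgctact
The Lep match starts 55 bases before the start of the gene and the Adipoq match 81 bases before it, whereas the Cfd and Retn windows hold no match. Over the adipokine genes 4 of 9 had such a match (Adipoq, Lep, Rbp4 and Nrg4), and 40.7% of all 32851 promoters of this length did. Of the other sequences searched on both strands, AGGTCA (the core of nuclear receptor sites) was found in 2 of the 9 genes and 16.3% of all promoters, GGGCGG in 5 and 35.7%, TATAAA in 1 and 13.6%, and CACGTG in 0 and 7.15%. The matches in the printed windows did not overlap matches of the other motifs. A match describes the letters in this window only.

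The cell types of eWAT shifted together with these genes. All 10 macrophage markers were lower in knockout mice, with log2 changes from -3.12 for Trem2 to -0.91 for Lyz2, and the mean of the list was 8.41 to 8.63 in wild-type mice and 5.56, 8.07, 6.39 and 5.83 in knockout mice. Of 10 adipocyte markers 7 were higher, among them Plin4 by 0.99, Slc2a4 (the insulin-regulated glucose transporter GLUT4) by 0.94 and Plin1 by 0.65, and the mean of the list rose from 9.08 to 9.21 in wild-type mice to 9.37 to 9.85 in knockout mice. Of 6 progenitor markers 4 were lower and of 8 mesothelial markers 4 were lower. In RNA of whole tissue, fewer cells of a type and less RNA per cell cannot be told apart, and the part of these shifts in the changes of the hormone genes was not tested. Knockout mouse 2, with the macrophage list at 8.07, was the knockout mouse nearest to the wild type for Cfd (10.28), Retn (10.72), Rbp4 (8.02), Nrg4 (5.36) and Sfrp5 (9.09), and shared the highest knockout value of Lep (9.60) with mouse 1. For Adipoq the nearest was mouse 3 (8.54, with mouse 2 at 8.64), and for Apln it was mouse 1 (3.20, with mouse 2 at 3.09). For each of these genes knockout mouse 2 still lay outside the wild-type range. Without knockout mouse 2 the same 7 genes were called.

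**Figure D3:**
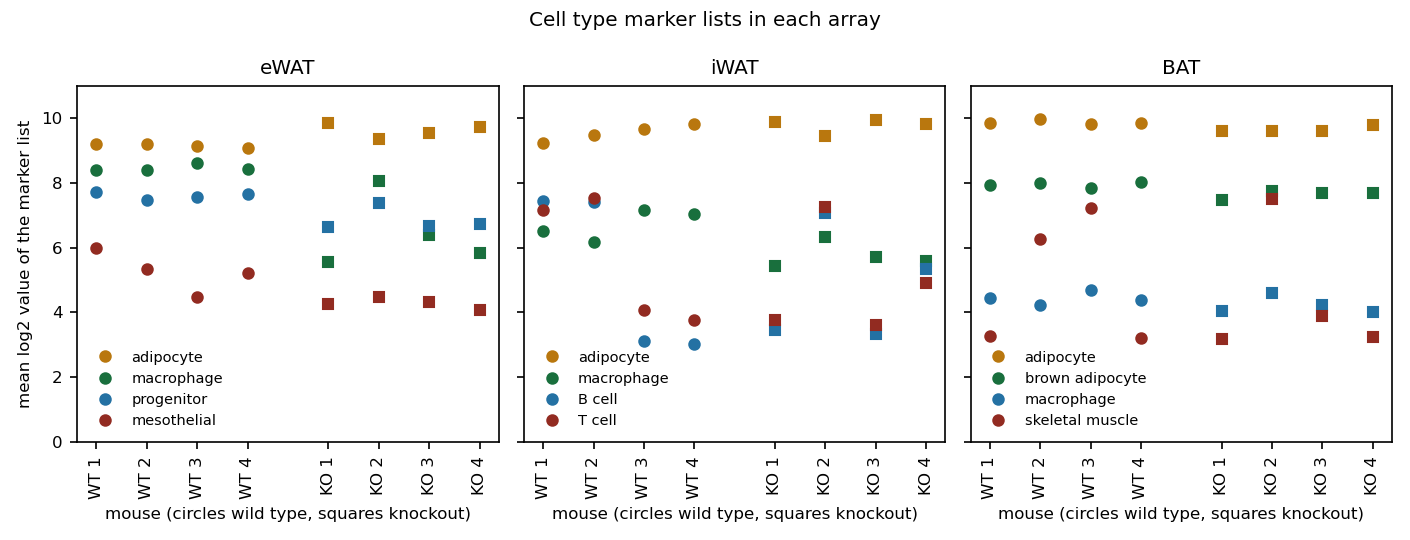
Mean log2 value of marker lists (vertical axis) in each array (horizontal axis, WT for wild-type mice as circles and KO for knockout mice as squares) for eWAT, iWAT and BAT, with the colours of the cell types given in each panel. In eWAT the macrophage list falls in knockout mice other than mouse 2, in iWAT the B and T cell lists are high in wild-type mice 1 and 2 and knockout mouse 2, and in BAT the skeletal muscle list is high in wild-type mice 2 and 3 and knockout mouse 2.

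To read each hormone gene against the adipocytes of the same piece of tissue, the mean of the 10 adipocyte markers, none of them an adipokine gene, was subtracted from the gene in every array. That mean was itself 0.47 higher in knockout eWAT, so the subtraction lowers every difference by 0.47. By construction, rises become smaller and falls become larger. Relative to the adipocyte markers, Adipoq did not separate the genotypes in eWAT: the difference was 0.05, and an exact permutation test gave p = 0.686. Cfd remained higher in every knockout mouse, at 0.91 to 1.46 against -1.91 to -0.08 in wild-type mice, a difference of 1.85. Retn and Rbp4 also remained higher in all 4 knockout mice, by 0.85 and 0.81, and Nrg4 by 0.83 with groups that overlapped narrowly (knockout mouse 2 lay just below wild-type mouse 3). Lep fell by 1.45 relative to the markers, Sfrp5 by 1.21 and Apln by 1.02, each without overlap between the groups. The two-sided exact permutation p was 0.0286 for Cfd, Retn, Rbp4, Lep, Sfrp5 and Apln, the smallest that 4 mice against 4 allow, and 0.0571 for Nrg4, and these p-values, 27 over the 3 depots, were not adjusted. Adipocyte markers may change per cell too, so the subtraction gives a ratio between genes and not a level per cell.

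**Figure D4:**
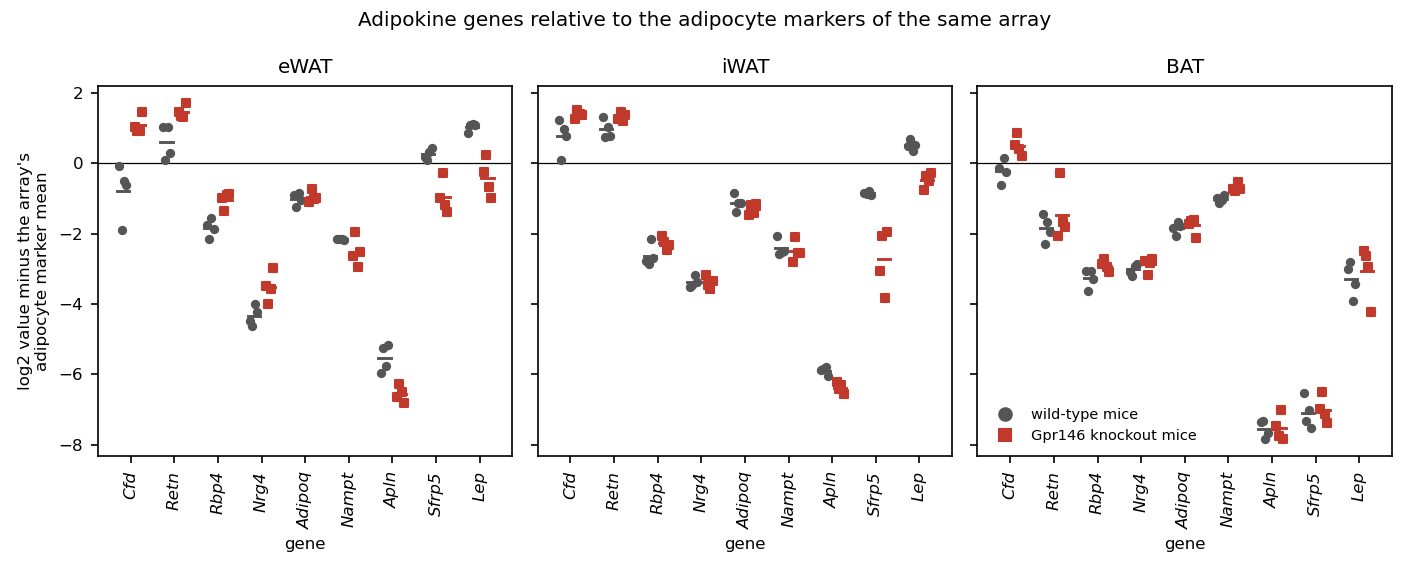
Log2 value of each adipokine gene minus the mean of 10 adipocyte markers of the same array (vertical axis) in wild-type (circles) and knockout mice (squares) for each gene (horizontal axis) in eWAT, iWAT and BAT, with lines for means. Only the distance between genotypes of a gene can be read, not the height of a gene. In eWAT the Adipoq groups overlap, the groups of Cfd stand apart upward, and those of Lep, Sfrp5 and Apln stand apart downward.

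In iWAT, each of the 9 adipokine genes differed in the same direction as in eWAT, Adipoq by only 0.03. The groups stood apart for Lep, Sfrp5, Retn and Cfd, but no adipokine gene passed the threshold. Limma called 0 of the 9, and 0% of all genes passed in this depot. Without adjustment 5 of the 9 had a p under 0.05 (Lep, Retn, Cfd, Rbp4 and Sfrp5), compared with 15.4% of all genes, and the methods' t-test gave 4. The groups did not overlap for 4 genes, compared with 8.15% of all genes, with knockout above for 2 (4.29% of all genes) and below for 2 (3.86%). Sfrp5 showed the largest gap. It was 8.37, 8.60, 8.89 and 8.95 in wild-type iWAT and 6.81, 7.37, 6.10 and 7.87 in knockout iWAT, so that all knockout mice were lower but ranged over nearly 2 log2 units. The means were 8.70 ± 0.27 (SD, n = 4) and 7.04 ± 0.76 (SD, n = 4), with a log2 difference of -1.66 (95% interval -2.42 to -0.91, adjusted p = 0.221). Lep was 9.70, 10.18, 10.03 and 10.37 in wild-type iWAT and 9.12, 9.07, 9.43 and 9.53 in knockout iWAT, a log2 difference of -0.78 (95% interval -1.15 to -0.41, adjusted p = 0.221). Retn (0.56) and Cfd (0.83) were higher in all knockout mice, with adjusted p-values of 0.221 and 0.223. Rbp4 differed by 0.57 with overlap, and Adipoq, Nampt, Apln and Nrg4 differed by between -0.27 and 0.21 with intervals that spanned 0.

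The iWAT arrays with B cell RNA included mice of both genotypes. With the mean of the B and T cell markers as a covariate the differences were -1.64 for Sfrp5, -0.82 for Lep, 0.53 for Retn and 0.76 for Cfd, with adjusted p-values of 0.0708, 0.0635, 0.0708 and 0.0888. Without the 3 arrays richest in lymphocyte markers they were -1.99, -0.84, 0.50 and 0.59, and none passed. Without the 4 richest, which leaves 2 mice per genotype, Sfrp5 (-2.46, adjusted p = 0.00861) and Lep (-0.92, adjusted p = 0.0475) passed. The macrophage list in iWAT was 6.17 to 7.16 in wild-type and 5.45 to 6.33 in knockout mice, and 0 of its 10 genes passed. Its part in the differences above was not tested. The mean of the adipocyte markers was 0.22 higher in knockout iWAT. Relative to it, Sfrp5, Lep and Apln were lower in every knockout mouse, by 1.88, 1.00 and 0.49, and Cfd was higher in every knockout mouse by 0.61 (exact permutation p = 0.0286 each, unadjusted). Before the subtraction Apln differed by -0.27, with groups that overlapped, at values near the array median. The 4 wild-type mice lay within 0.11 of each other for Sfrp5 on that scale, between -0.89 and -0.78.

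In BAT, only Cfd separated the genotypes. No adipokine gene passed the threshold with limma (0.0284% of all genes did), 1 of 9 had an unadjusted p under 0.05 (12.7% of all genes), as with the methods' t-test, and 1 of 9 showed no overlap (7.23% of all genes, 3.31% with knockout above). Cfd was 9.72, 9.36, 9.97 and 9.61 in wild-type BAT and 10.13, 10.46, 10.02 and 10.001 in knockout BAT. The lowest knockout value exceeded the highest wild-type value by a small margin, and the means differed by 0.49 (95% interval 0.17 to 0.80, adjusted p = 0.198). Retn was between 7.55 and 8.41 in 7 of the 8 mice and 9.31 in knockout mouse 2, an array with muscle RNA, and its difference of 0.16 turned to -0.34 without the 3 arrays richest in muscle markers. The Cfd difference was 0.38 without those arrays and 0.52 with the muscle list as a covariate. The intervals of the others show how large a change could have been missed. They were narrow for Nampt (-0.10 to 0.29), Adipoq (-0.36 to 0.07) and Nrg4 (-0.37 to 0.21) and wide for Lep (-0.78 to 0.77), whose BAT values were 5.90 to 7.18 in wild-type and 5.56 to 7.12 in knockout mice. Relative to the adipocyte markers, whose mean was 0.22 lower in knockout BAT, Cfd was higher by 0.71 and Nampt by 0.32 in every knockout mouse (exact permutation p = 0.0286 each, unadjusted). The subtraction raises every difference in BAT by 0.22. Before it, Nampt differed by 0.10, with groups that overlapped.

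The size of the genotype difference was then compared between depots within mice, on the assumption that the same mouse number marks the same animal in each tissue. Over all genes, with genotype means subtracted, same-numbered arrays of 2 depots correlated between -0.02 and 0.30. The array of its own number was the best match for 4 of 4 wild-type and 1 of 4 knockout mice between eWAT and iWAT, for 4 and 3 between eWAT and BAT, and for 0 and 3 between iWAT and BAT, so the assumption is not borne out in every pair of depots. Between eWAT and BAT, 4 of the 9 genes differed in their change after adjustment, compared with 6.93% of all genes, and 7 had an unadjusted p under 0.05, compared with 20.3% of all genes. The change of Cfd was larger in eWAT by 1.84 (standard error 0.33, adjusted p = 0.0126), that of Nrg4 by 1.38 (0.18, 0.00772), that of Rbp4 by 1.15 (0.21, 0.0126) and that of Adipoq by 0.66 (0.14, 0.0228). All 4 are genes that rose in eWAT. For Adipoq the call was lost without wild-type mouse 2 or 4 or without knockout mouse 1 or 4, at adjusted p-values from 0.0558 to 0.0764. The corresponding difference was -0.98 for Lep (adjusted p = 0.0651) and -0.62 for Sfrp5 (0.111). Sfrp5 lay near the floor of the array in BAT, so a fall there could hardly have been measured. The same limit holds for its comparison between iWAT and BAT below. Between eWAT and iWAT, limma called 0 of the 9 genes and 0% of all genes, with 6 of the 9 at an unadjusted p under 0.05 (10.8% of all genes). The differences were largest for Cfd (1.49, adjusted p = 0.0957) and Nrg4 (1.09, 0.116), and both passed when knockout mouse 2 was left out. The change of Lep was of like size in eWAT and iWAT, with a difference of -0.20 and a standard error of 0.30, and Sfrp5 fell by 0.92 more in iWAT than in eWAT (standard error 0.34, adjusted p = 0.358). Between iWAT and BAT limma called 0 of the 9 genes and 0% of all genes, and 1, Sfrp5, had an unadjusted p under 0.05 (9.58% of all genes), with a difference of -1.54 (adjusted p = 0.299).

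Liver expressed some of these genes and not others. Adipoq, Lep, Sfrp5 and Apln lay between 1.43 and 3.02 there in all 8 mice, below or near the array median. Among the 9 genes 2 passed the threshold in liver, compared with 0.661% of all genes, and both were lower in knockout mice (0.499% of all genes). The same 2 had an unadjusted p under 0.05 (13.3% of all genes) and no overlap (7.78% of all genes, 4.16% with knockout below). Cfd, at a low level, was 4.29, 4.71, 4.66 and 4.96 in wild-type livers and 3.55, 4.05, 3.36 and 3.19 in knockout livers, a log2 change of -1.12 (standard error 0.18, adjusted p = 0.0242), opposite in sign to all fat depots. The means of some marker lists were lower too. The adipocyte list averaged 5.78 in wild-type and 5.27 in knockout livers, with Cidec and Plin4 called lower. Yet 5 of its 10 markers changed upward, and its median change was -0.02. The endothelial list averaged 4.32 and 3.76, with 3 of 8 called lower, and the macrophage list 4.34 and 3.85, with 0 of 10 called. The progenitor list averaged 4.30 and 4.03, with 1 of 6 called lower and a median change of 0.002. Knockout mouse 2 was the highest knockout liver for Cfd and for the adipocyte, endothelial and macrophage lists. For the progenitor list mouse 4 was highest (4.15, with mouse 2 at 4.07). The part of these lists in the result was not tested. Nampt was 7.41, 7.55, 7.25 and 7.14 in wild-type livers and 6.80, 6.65, 6.94 and 6.64 in knockout livers, a change of -0.58 (standard error 0.11, adjusted p = 0.0371). Both calls depended on single arrays: with 1 liver array left out, the adjusted p ranged from 0.00273 to 0.0764 for Cfd and from 0.0410 to 0.117 for Nampt. The threshold was missed for Cfd without wild-type mouse 2, 3 or 4 or knockout mouse 1, 3 or 4, and for Nampt without wild-type mouse 1, 2 or 3 or knockout mouse 1, 2 or 4. Rbp4, whose blood protein comes mostly from the liver, was 11.10 to 11.19 in all 8 livers, and its difference of -0.02 had a 95% interval of -0.16 to 0.12, in contrast to its 2.43-fold rise in eWAT.

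The mice of a genotype also differed among themselves, and the 36 pairs of adipokine genes were correlated over the 8 mice of each fat depot after subtracting the genotype means. No pair passed adjustment over the 108 tests (smallest adjusted p = 0.188). Without adjustment, 7, 6 and 5 of the 36 pairs had a permutation p under 0.05 in eWAT, iWAT and BAT. The share of all pairs of genes under that threshold was not computed, so these counts show nothing particular to the adipokine genes. In eWAT the closest pair by p was Retn and Cfd, with Pearson r = 0.84 (exact within-genotype permutation p = 0.00174, adjusted 0.188) and Spearman rho = 0.90 (permutation p = 0.00347, adjusted 0.188), and r = 0.80 without the 2 mice farthest from the median of Retn. Cfd, Retn, Rbp4, Nrg4 and Adipoq, the genes that rose, were positively correlated with each other in all 10 of their eWAT pairs, with r from 0.44 to 0.92, and in all 10 of their iWAT pairs, with r from 0.42 to 0.93. In BAT 6 of the 10 were positive, and the 4 pairs with Nrg4 were negative, from -0.70 with Retn to -0.25 with Rbp4. In iWAT the 3 mice richest in lymphocyte RNA were the low ones for each of these 5 genes: wild-type mice 1 and 2 had the lowest values of their genotype, and so did knockout mouse 2. Knockout mouse 4, with the B cell list at 5.34, was not low. It had the highest knockout values of Adipoq (8.66) and Retn (11.20) and the second highest of Cfd, Rbp4 and Nrg4. Leaving out the 3 richest arrays leaves 5 mice, too few for a correlation, and their part in the iWAT correlations was not tested. Rbp4 and Nrg4 correlated in eWAT with r = 0.89 (permutation p = 0.0104, adjusted 0.188, rho = 0.86, permutation p = 0.0208, adjusted 0.375), which fell to 0.65 without the 2 extreme mice, and in iWAT with r = 0.93 (permutation p = 0.00868, adjusted 0.188, rho = 0.98, permutation p = 0.00347, adjusted 0.188) and 0.94 without them. With the macrophage list in eWAT, r was -0.81 for Rbp4 (permutation p = 0.0885, rho = -0.38, permutation p = 0.373). For Nrg4 it was -0.82 (permutation p = 0.109, rho = -0.38, permutation p = 0.493). Without the 2 mice farthest from the median of the list, r was -0.25 for Rbp4 and -0.60 for Nrg4. Other lists had r of like size for Rbp4 and Nrg4 in eWAT, with 0.75 and 0.72 for the adipocyte list and -0.71 and -0.70 for the progenitor list. No correlation of a hormone gene with a marker list passed adjustment over 324 tests (smallest adjusted p = 0.307). In iWAT 32 of the 36 correlations were positive, in eWAT 20 and in BAT 16, beside 50.9%, 50.2% and 50% of all pairs of genes. In BAT, Cfd and Rbp4 had r = 0.84 (permutation p = 0.0243, adjusted 0.188, rho = 0.88, permutation p = 0.0208, adjusted 0.375) and 0.95 without 2 mice, and Sfrp5 and Nrg4 had r = -0.73 (permutation p = 0.0226, adjusted 0.188, rho = -0.76, permutation p = 0.0434, adjusted 0.375) and -0.47 without them. Lep and Sfrp5, which fell together, had r = 0.89 in eWAT with a permutation p of 0.186 (adjusted 0.506). None of the 27 correlations of a gene with itself between depots passed adjustment either, and the smallest p was that of Nrg4 between eWAT and BAT at r = 0.92 (permutation p = 0.0260, adjusted 0.416, rho = 0.83, permutation p = 0.0382).

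**Figure D5:**
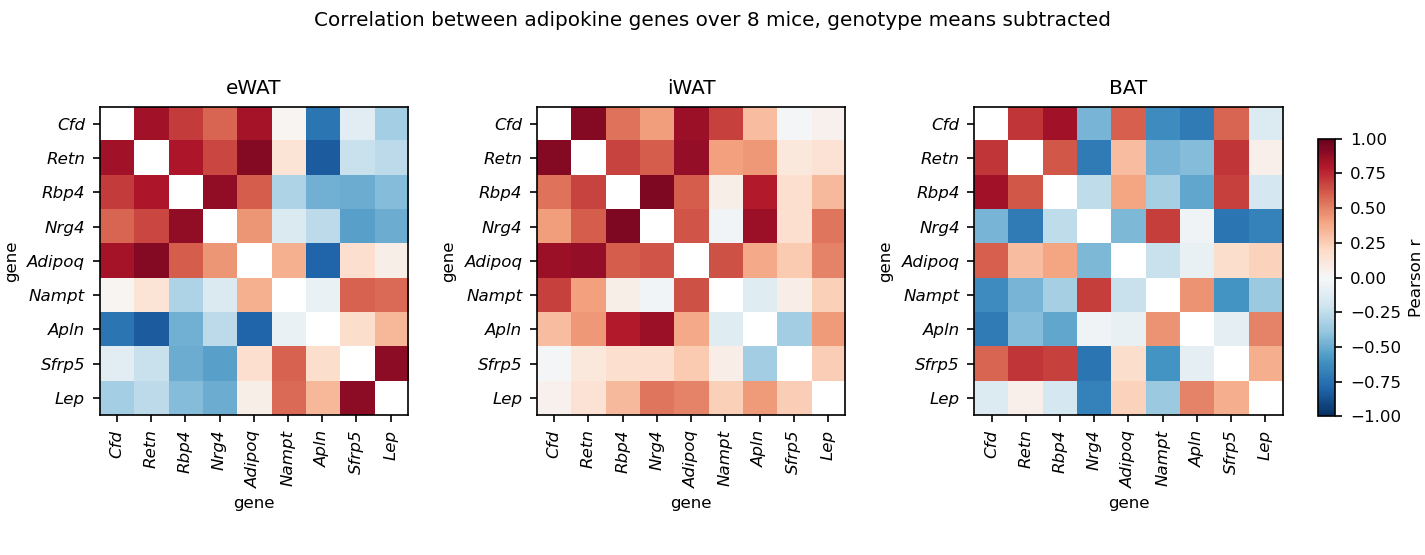
Pearson r between each pair of adipokine genes (both axes) over 8 mice in eWAT, iWAT and BAT after subtracting the mean of each genotype, from blue (-1) to red (1), with the diagonal left blank. In eWAT and iWAT the block of Cfd, Retn, Rbp4, Nrg4 and Adipoq is red, and no pair passed adjustment (smallest adjusted p 0.188).

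The genes whose pattern was most like each adipokine gene were found over the 24 fat arrays, after subtracting the mean of each depot and genotype, among 10869 genes above the median in all 3 depots. These correlations share arrays and have no p. Cfd was closest to Cyp2e1 (r = 0.83), Selenbp1 (0.81) and Mettl7a1 (0.81). Retn was closest to Igfbp4 (0.84), Trf (0.83), the gene of transferrin, and Car5b (0.83), a mitochondrial carbonic anhydrase. Adipoq was closest to Pde1a (0.88), Cd302 (0.87) and Lyplal1 (0.86). Rbp4 was closest to Pim3 (0.85), Clmn (0.84) and the lipid droplet gene Plin4 (0.84), which also belongs to the adipocyte list. Its r with Plin4 was 0.95 in eWAT and 0.93 in iWAT but -0.25 in BAT. Nrg4 was closest to Il15ra (0.90), the insulin-signalling kinase Akt2 (0.89) and Bckdhb (0.88), a subunit of the enzyme that breaks down branched-chain keto acids. Apln was closest to the stress-response genes Ddit3 (0.82) and Trib1 (0.72) and to Mettl9 (0.73). Lep had the loosest neighbours, Stk39, Rnd3 and Naf1, all at 0.71. Sfrp5 was closest to Lbp (0.80), Sh3bgrl (0.80) and LOC100862007 (0.80), and Nampt to genes that included Nat15 (0.85) and Minos1 (0.82).

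Of 16 genes listed as receptors and binding partners of these hormones, 1 was higher, 4 were lower and 11 did not pass in knockout eWAT. Over all genes, 4.57% were higher and 10.7% lower, and the median change of the list was -0.03 beside 0.03 over all genes. The 1 higher was Insr, which rose by 0.75 (adjusted p = 0.0155). It is the receptor of insulin, which is not among the adipokine genes here. Cap1, a binding partner of resistin, fell by 1.07 (0.0101), Ccrl2, a chemerin-binding receptor, by 1.21 (0.0206), Aplnr, the apelin receptor, by 0.53 (0.0216) and C3ar1, a complement receptor also carried by macrophages, by 2.27 (0.0230). The receptors of adiponectin and leptin did not pass, with 0.55 for Adipor2, -0.08 for Adipor1 and -0.19 for Lepr.

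Of 39 other secreted products of fat, 2 were higher, 12 lower and 25 did not pass in eWAT, beside 4.57% higher and 10.7% lower of all genes, with a median change of -0.21. Vegfa rose by 0.92 (adjusted p = 0.0178) and Agt, angiotensinogen, by 1.19 (0.0363). Among those that fell were the inflammatory signals Tnf (-1.14, adjusted p = 0.0104) and Ccl2 (-1.93, 0.0235), the lipid carrier Lcn2 (-0.63, 0.00971) and Metrnl (-1.53, 0.0265). C1qtnf7 (-0.76, 0.0166) and Gdf15 (-0.46, 0.0274) fell too. Several of these are made by macrophages, whose marker list fell from 8.47 to 6.46, and the part of that fall in these changes was not tested.

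Among 15 genes of adipokine transcription and secretion, 3 were higher, 2 lower and 10 did not pass in eWAT, beside 4.57% higher and 10.7% lower of all genes, with a median change of 0.19. The adipocyte transcription factors Klf15, Cebpa and Pparg rose by 1.95 (adjusted p = 0.00813), 1.13 (0.00823) and 0.61 (0.0203). Erp44, which retains adiponectin in the secretory pathway, fell by 0.50 (0.0159), and Arntl, a core clock gene, fell by 1.19 (0.0484). In iWAT and BAT limma called none of the genes of these 3 lists, and at an unadjusted p under 0.05 there were 5 and 4 of the 16 receptors, 7 and 4 of the 39 secreted products, and 5 and 4 of the 15 transcription and secretion genes, beside 15.4% and 12.7% of all genes.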

How the data were processed

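Genotype and tissue of the 32 arrays were taken from the sample labels and column names. The titles of the knockout livers also name the wild type, and their other labels, which say knockout, were used. Values were deposited on a log2 scale by the authors, with 1 row per gene symbol and each tissue normalized on its own. The software, the probe summary and the normalization are not given in the sources used here. Entries without a usable gene name (1 or 2 per table) were dropped. Genotypes were compared per tissue with limma 3.58.1 in R 4.3.3 with Benjamini-Hochberg adjustment over 24646 genes and a threshold of 0.05, changes between depots with limma on differences within a mouse, and single values with two-sided exact permutation tests (70 relabelings). Correlations used all 576 permutations within genotype. The procedure was tested on simulated data. Named were the adipokine genes, up to 8 genes per pathway list past the threshold with the smallest adjusted p, marker genes, the 3 most similar genes per adipokine gene and Gpr146, and 2 genes that this rule names are not reported here. Other genes named (Agt, Adipor1, Adipor2 and Lepr) were picked with their values in view. The adipokine genes and all lists were chosen with earlier results of these data known. Leaving out the 3 or 4 arrays richest in lymphocyte or muscle markers and the subtraction of the adipocyte marker mean were added after seeing the data. Figures were drawn with matplotlib 3.10.9.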

Additional observations from a re-analysis of the deposited data

Results flagged for a closer look

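In 2 of 72 groups of 4 mice (9 genes, 4 tissues, 2 genotypes), a single mouse lay far from the other 3 by Dixon's test, and chance alone flags about 1 in 20 groups. Cfd in wild-type iWAT was 9.56 in mouse 2 and 10.46 to 10.64 in the others. Apln in knockout liver was 2.62 in mouse 4 and 2.03 to 2.08 in the others, all below the array median.

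The genotype difference of 4 genes differed between eWAT and BAT in a test of the difference itself (limma on differences within a mouse). It was larger in eWAT by 0.66 for Adipoq (adjusted p = 0.0228), 1.84 for Cfd (0.0126), 1.15 for Rbp4 (0.0126) and 1.38 for Nrg4 (0.00772).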

How the results depend on the processing

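In eWAT the count of 7 called genes was 7 or 8 with the replicate block, quantile normalization, weighted arrays, a robust trended prior, equal array medians, the removal of dim genes and the methods' t-test without adjustment, 0 with that test adjusted, and 6 to 8 with 1 array left out. In iWAT the count of 0 became 4 with the unadjusted t-test and 2 without the 4 arrays richest in lymphocyte markers, and stayed at 0 with each array left out. In BAT it became 1 with the unadjusted t-test. In liver the count of 2 became 1 with quantile normalization, 1 with the replicate block, 0 with the adjusted t-test and 0 to 1 with an array left out. Correlated pairs went from 0 to 20 in eWAT and 2 in iWAT when the genotype means were not subtracted, which adds the genotype difference to the correlation. Genes whose change differed between eWAT and iWAT numbered 0 to 2, and between eWAT and BAT 3 to 5, with a mouse left out. The replicate block takes a wild-type and a knockout mouse of the same number as a pair. Their deviations within a tissue correlated between -0.38 and 0.67, and 8 of 16 correlated best with their own number. This does not settle whether the numbers pair the genotypes. It also does not bear on whether a number marks the same animal across tissues. The block changed no other call of an adipokine gene. Signs turned only where differences were close to 0 or wide. Adipoq in iWAT (0.03) was -0.015 with the lymphocyte covariate, -0.097 and -0.16 without the 3 or 4 arrays and -0.080 to 0.12 with an array left out. Nampt in iWAT was -0.0074 and -0.025 without those arrays. Lep in BAT was 0.092 with array weights, 0.033 with quantile normalization, 0.0062 with the muscle covariate and -0.24 to 0.33 with an array left out. Without the 3 arrays richest in muscle markers, Retn in BAT was -0.34 and Nrg4 0.013, and with an array left out Retn ranged from -0.21 to 0.38, Nrg4 from -0.18 to 0.040 and Sfrp5 from -0.27 to 0.057. The cause of these shifts was not tested.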
